A study of Mus musculus with 8 samples.

Results

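The clustered histone genes and Slbp were followed through RNA-seq of 8 single mouse MII oocytes, eggs held at metaphase of the second meiotic division. Members were the Ensembl gene IDs whose GENCODE M21 symbol starts with Hist1h, Hist2h, Hist3h or Hist4h, plus Slbp, a rule on names alone. M21 names 71 such genes, and 58 of them, 57 histone genes and Slbp, were among the 37620 gene IDs of the deposited table. The 57 were 6 H1, 18 H2A, 14 H2B, 7 H3 and 12 H4 genes, and 3 of them are pseudogenes. By cluster, 45 lay in Hist1, 9 in Hist2 and 3 in Hist3. The other 13 genes named in M21, Hist1h2ao, Hist1h2ap, Hist1h2bh, Hist1h2bl, Hist1h2bm, Hist1h2bn, Hist1h3d, Hist1h3f, Hist1h3g, Hist1h3h, Hist1h3i, Hist2h2bb and Hist4h4, were not analysed here.

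Both genotypes were of the C57BL/6 strain and carried floxed Hira alleles. The KO oocytes, KO1, KO3, KO5 and KO6, were Hira f/f with Gdf9-Cre, a recombinase driven by an oocyte promoter. The WT oocytes, WT1, WT2, WT4 and WT5, were Hira f/f. The titles of all 8 samples, WT included, also carry a Gdf9-Cre+ tag, and the genotypes used here follow the genotype and description labels. Hira encodes a chaperone that places histone H3.3 on DNA outside replication. Ages and the females of origin are not given in the labels, so each genotype counts as 1 sample of 4 cells. No test was possible on that footing: SDs and overlaps below describe the spread between these oocytes, and no p-value is given.

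Replication-dependent histone genes sit in clusters, mostly lack introns, and supply the core histones H2A, H2B, H3 and H4 and the linker histone H1 during DNA synthesis. Their mRNAs usually end in a short stem-loop in place of a poly(A) tail, and the stem-loop binding protein SLBP holds that structure through processing, export, translation and decay. Methods that prime cDNA on poly(A) capture such mRNAs poorly, so an FPKM of a stem-loop mRNA is not a measure of all its copies. Oocytes store Slbp mRNA, and mouse embryos depend on maternal SLBP for early cleavage. A few clustered genes encode variants of their own, among them Hist1h2aa and its neighbour Hist1h2ba, which encode the testis and oocyte histones TH2A and TH2B.

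The stem-loop is shown first because it is the element that SLBP binds and that most members share. In the M21 transcripts, 48 of the 67 protein-coding clustered histone genes had at least 60 annotated bases after the stop codon, and 44 of those 48 held the histone 3′ stem-loop, a stem of 6 base pairs closed by a loop of 4 bases. In 2 further genes with shorter annotated ends the stem-loop was also found. Its first base lay 22 to 59 bases after the stop codon. Of 20628 other protein-coding genes with as many bases after the stop, 5 (0.0242%) held it in the first 100 bases, namely Bap1, Eif2ak4, H2afx, H2bfm and Nemp1. The 46 genes used 8 stem-loop sequences, and 1 of these served 26 genes. The lines below, from chromosome 13 except for Hist2h4 (chromosome 3) and Hist3h2ba (chromosome 11) and read 5′ to 3′ on the transcript strand, give the stem-loop in capitals with 5 bases on each side. They are the 7 members with the most reads among those that hold one, and the 3 H4 genes carry another stem than the H1 and H2B genes.
Hist1h4d: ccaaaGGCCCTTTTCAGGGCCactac
Hist1h4c: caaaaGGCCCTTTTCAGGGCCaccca
Hist2h4: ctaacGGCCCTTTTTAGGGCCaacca
Hist1h2bj: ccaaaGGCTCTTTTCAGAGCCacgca
Hist1h1e: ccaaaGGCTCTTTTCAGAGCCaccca
Hist1h1c: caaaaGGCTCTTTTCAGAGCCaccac
Hist3h2ba: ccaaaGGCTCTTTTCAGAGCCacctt

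The 3 histone genes with the most reads had no stem-loop in their annotated transcripts, for different reasons. The Hist1h2aa model ends at the stop codon, so nothing after it could be searched. The Hist1h1a model has 48 bases after the stop and no match in them. Hist1h2bc has 2 exons and 742 bases after the stop in the model used, with no stem-loop. In that model AATAAA, the usual polyadenylation signal, begins 296 bases after the stop. The smallest length that fits the FPKM of Hist1h2bc was 736 bases, against 1156 bases of exons in M21. The transcript counted thus need not be this model. Where no match was found, only the annotated letters were searched.

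Library totals were 38032455 to 50208686 reads, recovered from the deposited FPKM, which scales reads to the length of the gene and to the library total. Reads in listed genes made up 75.04% to 80.3% of the total in KO oocytes and 84.4% to 86.2% in WT oocytes, so the same share of gene reads gives a lower FPKM in KO. Hira, the targeted gene, had 0, 2, 0 and 2 reads in KO1, KO3, KO5 and KO6, against 42, 0, 96 and 1 in WT1, WT2, WT4 and WT5. WT2 and WT5 were thus as low as the KO oocytes, and the table does not separate the floxed exons from the rest of the gene. The 12 oocyte markers examined were present in every oocyte, with Dppa3, H1foo, Oosp1 and Gdf9 highest. Their summed FPKM was 13880 to 16402 in KO and 21669 to 26551 in WT oocytes, without overlap. Singly, 5 of the 12 did not overlap, beside 20.7% of the 7833 genes compared as described below. The median difference of the 12, KO minus WT in mean log2(FPKM + 1), was -0.57. Of the 12, 1 was at least 2-fold lower, beside 6.84% of the compared genes. It was Oosp1, with 1118 ± 313 FPKM in KO and 3019 ± 482 in WT oocytes (SD, n = 4 each). Genes with a read numbered 13255 to 14599 in KO and 12167 to 12793 in WT oocytes. Of 15 cumulus and granulosa markers, 5 (Amh, Fst, Inha, Foxl2 and Cyp11a1) had no read, and the summed FPKM of the list was 8.48 to 33.3 in KO and 17.1 to 31.3 in WT oocytes, most of it Cyp19a1 with means of 21.8 in KO and 21.5 in WT oocytes. Oocyte markers, the share in listed genes and the number of genes with a read thus moved with genotype, as did the lower histone sums, Hist1h2aa and Hist1h2bc described below, and their part in those results was not tested.

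Reads of the clustered histone genes analysed were rare in both genotypes and came from a handful of genes. How well these libraries captured stem-loop mRNAs was not tested, so reads and their ranking do not measure all mRNA copies. Over all 8 oocytes, 22 of the 57 histone genes had no read, 28 had reads but a mean FPKM under 1, and 7 reached a mean FPKM of 1. Together they gave 40915 reads. Hist1h2aa supplied 32.5% of them, Hist1h2bc 23.8%, Hist1h1a 23.0%, Hist1h2al 7.29% and Hist1h4d 7.20%. A read was found in all 8 oocytes for 4 histone genes, in KO oocytes alone for 5 and in WT oocytes alone for 3. These counts have no share over all genes beside them, and every KO oocyte had more genes with a read than any WT oocyte. No difference between the genotypes is read from them. The 22 genes with no read were Hist1h1t, Hist1h2ab, Hist1h2ad, Hist1h2ae, Hist1h2af, Hist1h2an, Hist1h2bb, Hist1h2bg, Hist1h2bq, Hist1h3b, Hist1h4b, Hist1h4j, Hist1h4k, Hist1h4m, Hist2h2aa1, Hist2h2aa2, Hist2h2ab, Hist2h2be, Hist2h3b, Hist2h3c1, Hist2h3c2 and Hist3h2bb-ps.

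The summed FPKM of the 57 histone genes was lower in KO than in WT oocytes. It was 217, 158, 92.0 and 132 in KO1, KO3, KO5 and KO6, against 287, 272, 359 and 270 in WT1, WT2, WT4 and WT5. Every KO oocyte lay below every WT oocyte, and the ratio of means was 0.504. As a share of reads in listed genes, the members took 0.0104% ± 0.0032 in KO and 0.0176% ± 0.0032 in WT oocytes (SD between oocytes, n = 4 each), a difference of -0.00714 percentage points. The lower sum was that of Hist1h2aa and Hist1h2bc. Over the other 55 genes, a choice made after the values were seen, summed FPKM was 113 ± 49.4 in KO and 68.3 ± 18.9 in WT oocytes (SD, n = 4 each), 1.65-fold higher in KO with overlap, and the share difference was 0.0034 percentage points. Over members whose exons overlap no other gene, which leaves out Hist1h2aa, the share difference was -0.00075 percentage points. H2A and H2B sums were lower and H4 sums higher in every KO oocyte than in any WT oocyte, as described by type below.

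**Figure D1:**
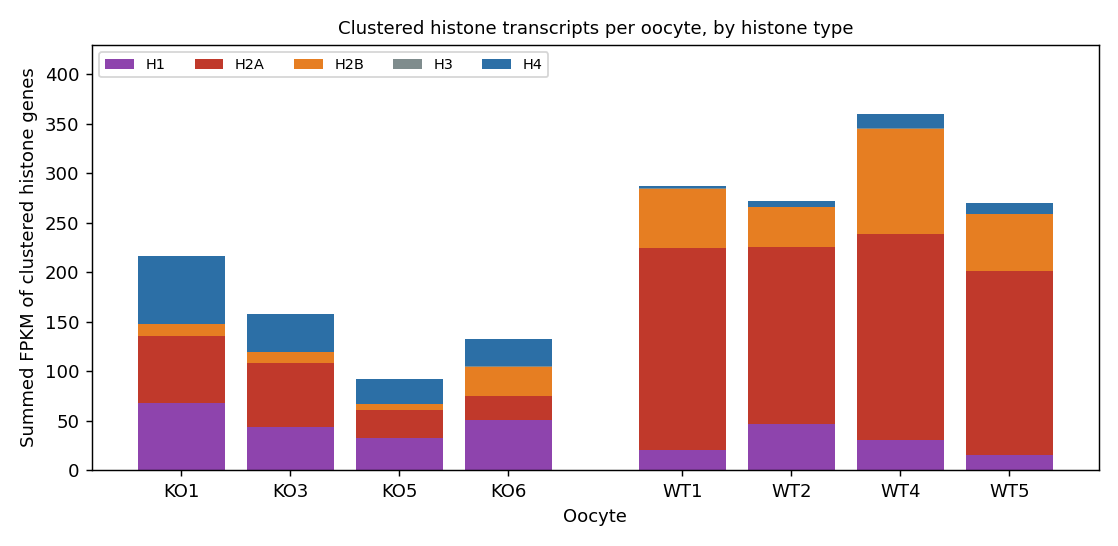
Stacked bars of the summed FPKM of the clustered histone genes in each oocyte, KO oocytes on the left and WT oocytes on the right, coloured by histone type. The totals run from 92.0 to 217 in KO and from 270 to 359 in WT oocytes, with H2A and H2B smaller and H4 larger in KO, and H3 too small to see.

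A gene was compared where its FPKM reached 1 in at least 4 of the 8 oocytes, and a difference of 2-fold in mean FPKM was the threshold. The filter left 6 of the 57 histone genes, Hist1h2aa, Hist1h2bc, Hist1h1a, Hist1h2al, Hist1h4d and Hist1h2bj, and these 6 held 94.4% of the histone reads. One of them passed through its WT values alone, so the counts that follow describe these 6 genes and are no support for the group. In KO oocytes 1 of the 6 was at least 2-fold higher, beside 18.3% of the 7833 genes compared, and 3 were at least 2-fold lower, beside 6.84%. The values of the genotypes did not overlap for 4 of the 6, beside 20.7% of all compared genes. The median difference of the 6, KO minus WT in mean log2(FPKM + 1), was -1.11, beside 0.098 over all compared genes. This median rests on few genes that differed in opposite directions: it was 0.17 without WT1, -0.027 without WT2, -0.68 without WT4 and -0.45 without WT5, in each of which Hist1h2bj no longer passed the filter. The 2-fold higher count was 2 without WT2. Just outside the filter, Hist1h1e had the highest mean FPKM, 1.47 over the 8 oocytes.

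Among the H2A genes the difference was that of 1 gene. Hist1h2aa (chr13:23934462-23934851 in GRCm38, plus strand, a single exon), encoding TH2A, had 26.8, 33.9, 19.7 and 17.2 FPKM in KO1, KO3, KO5 and KO6, against 155, 147, 201 and 172 FPKM in WT1, WT2, WT4 and WT5. The genotypes lay far apart, with the highest KO oocyte well under the lowest WT oocyte. Mean FPKM was 24.4 ± 7.53 in KO and 169 ± 23.6 in WT oocytes (SD, n = 4 each), 6.91-fold lower in KO. Leaving out any 1 oocyte or changing the scaling kept this fold between 6.29 and 7.94. The reads behind it were 1625 in KO and 11690 in WT. A predicted gene, Gm44344, overlaps 129 bases of its exon in M21 and was not among the table's IDs; whether reads were assigned by strand was not stated.

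The promoter of Hist1h2aa is printed because it lies between the pair of genes for TH2A and TH2B and because Hist1h2aa is the member with the most reads. Hist1h2ba starts 305 bases away on the opposite strand, and the RefSeq promoters of the pair share 220 bases. The window below, 250 bases before to 50 bases after the RefSeq start in GRCm38.p6, chr13:23934187-23934486, plus strand, has in capitals each CCAAT box, each TATAAA element and each ATTTGCAT, the octamer of many H2A and H2B promoters, on either strand.
Hist1h2aa promoter: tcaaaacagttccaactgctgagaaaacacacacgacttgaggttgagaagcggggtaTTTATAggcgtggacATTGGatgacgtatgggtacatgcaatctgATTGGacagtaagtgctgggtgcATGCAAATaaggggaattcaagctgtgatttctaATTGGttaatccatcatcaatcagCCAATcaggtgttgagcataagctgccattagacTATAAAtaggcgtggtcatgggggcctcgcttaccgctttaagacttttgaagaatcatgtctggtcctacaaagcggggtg
A TATAAA begins 32 bases before the RefSeq start on the sense strand, another begins 192 bases before it on the opposite strand, facing Hist1h2ba, and the octamer begins 124 bases before it on the opposite strand.

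Among the 63 RefSeq promoters of 62 clustered histone genes, CCAAT was found on either strand in 54, beside 37.4% of 32851 mouse promoters of the same length. TATAAA was found in 35 of the 63, beside 13.6% of all promoters. ATTTGCAT was found in 14 of the 63, 7 of H2A and 7 of H2B genes, beside 1.74% of all promoters. Of the H4 promoters, 3 of 12 held CCAAT, and each promoter of the other types held it. Neighbouring promoters of head-to-head genes share bases, so these promoters are not independent, and a match is not evidence that a factor binds.

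The remaining H2A genes did not separate the genotypes. Hist1h2al, listed as a processed pseudogene and lying alone on chromosome 13 away from the other Hist1 genes, had 39.7, 30.7, 8.27 and 6.37 FPKM in KO1, KO3, KO5 and KO6, against 47.8, 31.4, 7.32 and 12.3 FPKM in WT1, WT2, WT4 and WT5. Its values ranged widely within each genotype, and its small mean difference turned round without KO5, KO6 or WT1. Summed H2A FPKM was 46.4 ± 23.6 in KO and 194 ± 14.3 in WT oocytes (SD, n = 4 each), a ratio of 0.238, and the genotypes did not overlap. Without Hist1h2aa the ratio was 0.855 and they did. Hist2h2ac, of the Hist2 cluster, reached at most 0.59 FPKM in KO and 0.67 in WT oocytes. Hist3h2a reached at most 0.15 in KO and 0.12 in WT oocytes.

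H2B transcripts were also lower in KO, mostly through Hist1h2bc. Hist1h2bc (chr13:23684199-23692908 in GRCm38, plus strand) had 9.62, 8.92, 4.99 and 28.1 FPKM in KO1, KO3, KO5 and KO6, against 54.9, 35.6, 99.1 and 51.5 FPKM in WT1, WT2, WT4 and WT5. All KO oocytes lay below all WT oocytes, with KO6 close to WT2. Means were 12.9 ± 10.3 in KO and 60.3 ± 27.2 in WT oocytes (SD, n = 4 each), 4.67-fold lower in KO, and 7.69-fold lower without KO6. The M21 transcript of Hist1h2bj holds the stem-loop shown above. The gene had no read in any KO oocyte, against 48, 83, 79 and 39 reads in WT1, WT2, WT4 and WT5. These WT reads amounted to 2.40, 3.96, 3.40 and 2.21 FPKM. The total of 249 WT reads has an exact Poisson 95% interval of 219 to 282, and with a floor of 3 reads in each KO library the gene was at least 19.97-fold lower in KO. Of 50-base windows, 59.4% of those of Hist1h2bj and 30.6% of those of Hist1h2bc also occur in transcripts of other genes. Reads could thus have been shared among copies.

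Other H2B genes gave few reads. Hist1h2ba, encoding TH2B, had 1.96, 0.20, 0 and 0.43 FPKM in KO1, KO3, KO5 and KO6, against 1.25, 0.057, 0.10 and 2.91 FPKM in WT1, WT2, WT4 and WT5, so the genotypes overlapped. Mean FPKM of Hist1h2ba was 0.65 in KO and 1.08 in WT oocytes, against 24.4 and 169 for its neighbour Hist1h2aa. These FPKM values do not rank the mRNA copies of the 2 genes. Of the windows described above, 38.2% of those of Hist1h2ba and 2.35% of those of Hist1h2aa also occur in transcripts of other genes. The part of shared sequence and of capture in this gap was not tested. Hist3h2ba had 1.49 FPKM in KO3 and at most 0.11 in the other KO oocytes, against 1.25 in WT2, 2.22 in WT4 and 0 in WT1 and WT5. Summed H2B FPKM was 14.5 ± 10.7 in KO and 66.0 ± 28.0 in WT oocytes (SD, n = 4 each), a ratio of 0.220. Without Hist1h2bc the ratio was 0.282 and the genotypes still did not overlap, at 0.63 to 2.22 in KO and 4.95 to 7.04 in WT oocytes. That separation lay with Hist1h2bj, the gene that passed the filter through WT alone: without both genes the sum was 0.63 to 2.22 in KO and 1.36 to 3.64 in WT oocytes, with overlap.

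**Figure D2:**
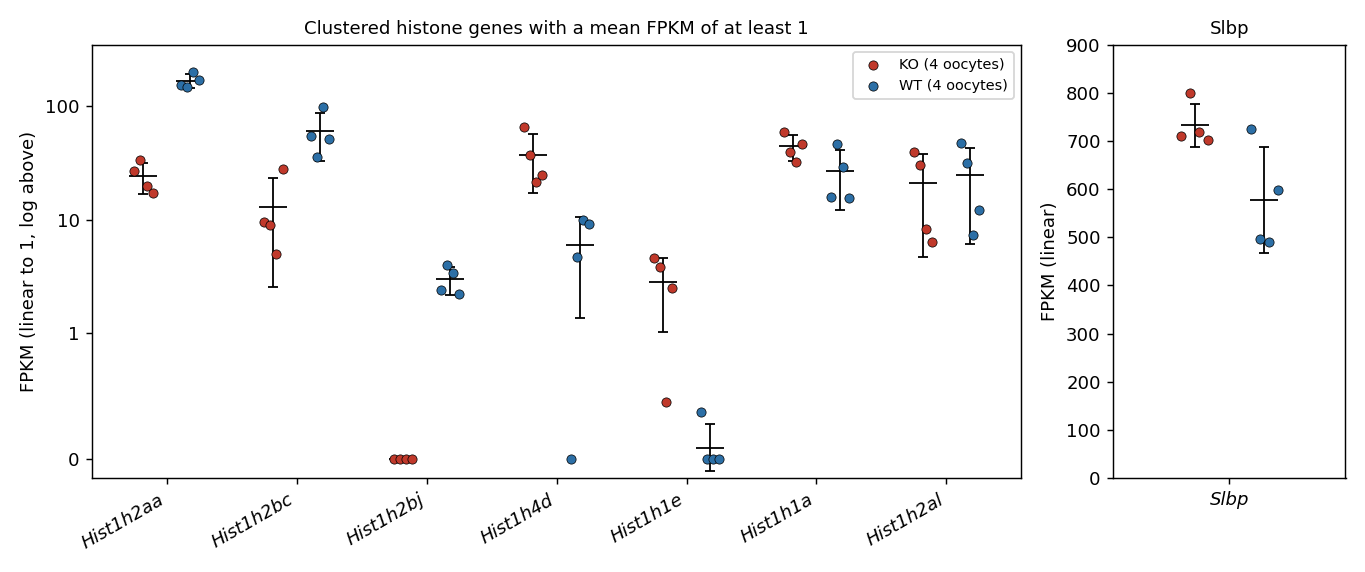
FPKM of each oocyte (points), with mean and SD (bars), for the 7 clustered histone genes whose mean FPKM reached 1 (left, linear below 1 and logarithmic above) and for Slbp (right, linear), with KO left of WT for each gene. Hist1h2aa, Hist1h2bc and Hist1h2bj are lower in all KO oocytes than in any WT oocyte, Hist1h4d and Hist1h1e are higher, and Hist1h1a, Hist1h2al and Slbp overlap.

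H4 transcripts went the other way. Hist1h4d (chr13:23581598-23582735 in GRCm38, plus strand, a single exon), which carries the H4 stem-loop shown above, had 65.9, 37.3, 21.6 and 24.6 FPKM in KO1, KO3, KO5 and KO6, against 0, 4.72, 10.03 and 9.17 FPKM in WT1, WT2, WT4 and WT5. Every KO oocyte was above every WT oocyte. Means were 37.4 ± 20.2 in KO and 5.98 ± 4.62 in WT oocytes (SD, n = 4 each), 6.25-fold higher in KO, from 2525 reads in KO and 419 in WT. Of the 50-base windows in its M21 transcripts, 10.2% occur in transcripts of other genes. The smallest length that fits its FPKM was 393 bases, against 1138 bases of exons in M21. The share over the bases counted was not computed. Summed H4 FPKM was 40.0 ± 20.5 in KO and 8.24 ± 5.44 in WT oocytes (SD, n = 4 each), 4.86-fold higher in KO, and 1.17-fold without Hist1h4d.

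The other H4 genes were low and overlapped. Hist1h4c had 0.41, 0, 1.15 and 0.43 FPKM in KO1, KO3, KO5 and KO6, against 0.59, 0.89, 2.62 and 1.00 FPKM in WT1, WT2, WT4 and WT5. Hist2h4, the H4 gene of the Hist2 cluster, had 1.90, 1.15, 0 and 0.56 FPKM in KO1, KO3, KO5 and KO6, against 0.73 in WT4 and 0 in the other WT oocytes. Neither gene was high in all oocytes of a genotype.

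The sum of the linker histone H1 genes was not lower in KO. Hist1h1a (chr13:23763666-23764406 in GRCm38, plus strand), for the H1 subtype H1.1, had 58.8, 39.3, 32.4 and 46.7 FPKM in KO1, KO3, KO5 and KO6, against 15.98, 46.7, 29.1 and 15.6 FPKM in WT1, WT2, WT4 and WT5. WT2 lay among the KO oocytes. Means were 44.3 ± 11.3 in KO and 26.8 ± 14.6 in WT oocytes (SD, n = 4 each), 1.65-fold higher in KO and 2.19-fold without WT2. None of its 50-base windows occurs in transcripts of another gene.

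Hist1h1e, for H1.4, was found mainly in KO. It had 4.61, 3.80, 0.45 and 2.48 FPKM in KO1, KO3, KO5 and KO6, against 0.37 in WT1 and 0 in the other WT oocytes. The genotypes did not overlap, although KO5 and WT1 were close. Reads numbered 363 in KO, with an exact Poisson 95% interval of 327 to 402, and 12 in WT, all in WT1, with an interval of 6.20 to 20.96, and the ratio of mean FPKM was 30.5. Exons of Hist1h1e overlap those of Gm11398 and Hist1h2be in M21, so some of these reads could belong to either. Hist1h1b, for H1.5, had 3.89 FPKM in KO1, 1.08 in KO6 and 0 in KO3, KO5 and all WT oocytes. Hist1h1c, for H1.2, had 0.15, 0.48, 0 and 0.35 FPKM in KO1, KO3, KO5 and KO6, against 4.00, 0.28, 0.82 and 0 FPKM in WT1, WT2, WT4 and WT5, so the genotypes overlapped for both genes. Summed H1 FPKM was 48.6 ± 14.5 in KO and 28.3 ± 13.8 in WT oocytes (SD, n = 4 each), a ratio of 1.72, with overlap.

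Few reads came from H3 genes. The 7 H3 genes together had 34 reads in KO and 55 in WT oocytes, and no oocyte exceeded 0.84 summed FPKM in KO or 0.96 in WT. Hist1h3e reached at most 0.055 FPKM in KO and 0.83 in WT oocytes, and Hist1h3a was 0.81 FPKM in KO5, 0.13 in WT1 and 0 in the other 6 oocytes. These read counts are too low to compare the genotypes. The H3 genes Hist1h3d, Hist1h3f, Hist1h3g, Hist1h3h and Hist1h3i were not analysed. Capture of stem-loop mRNAs was not tested either, so these reads do not measure all H3 mRNA.

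By cluster, nearly all reads came from Hist1. Summed Hist1 FPKM was 148 ± 51.3 in KO and 296 ± 40.9 in WT oocytes (SD, n = 4 each), a ratio of 0.501. Hist2 gave 274 reads in KO and 90 in WT oocytes from 2 of its 9 genes, and Hist3 gave 65 reads in KO and 114 in WT oocytes from 2 of its 3 genes. Within Hist1, the stretch chr13:23531050-23934851 held 36775 of the 40372 Hist1 reads, and the stretch chr13:21715763-22043676 held 613. In the stretch with more reads, Hist1h4d and Hist1h1e, higher in KO, are followed along the chromosome by Hist1h2bc, lower in KO, so the direction was not shared along the cluster. These coordinates are of GRCm38.

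**Figure D3:**
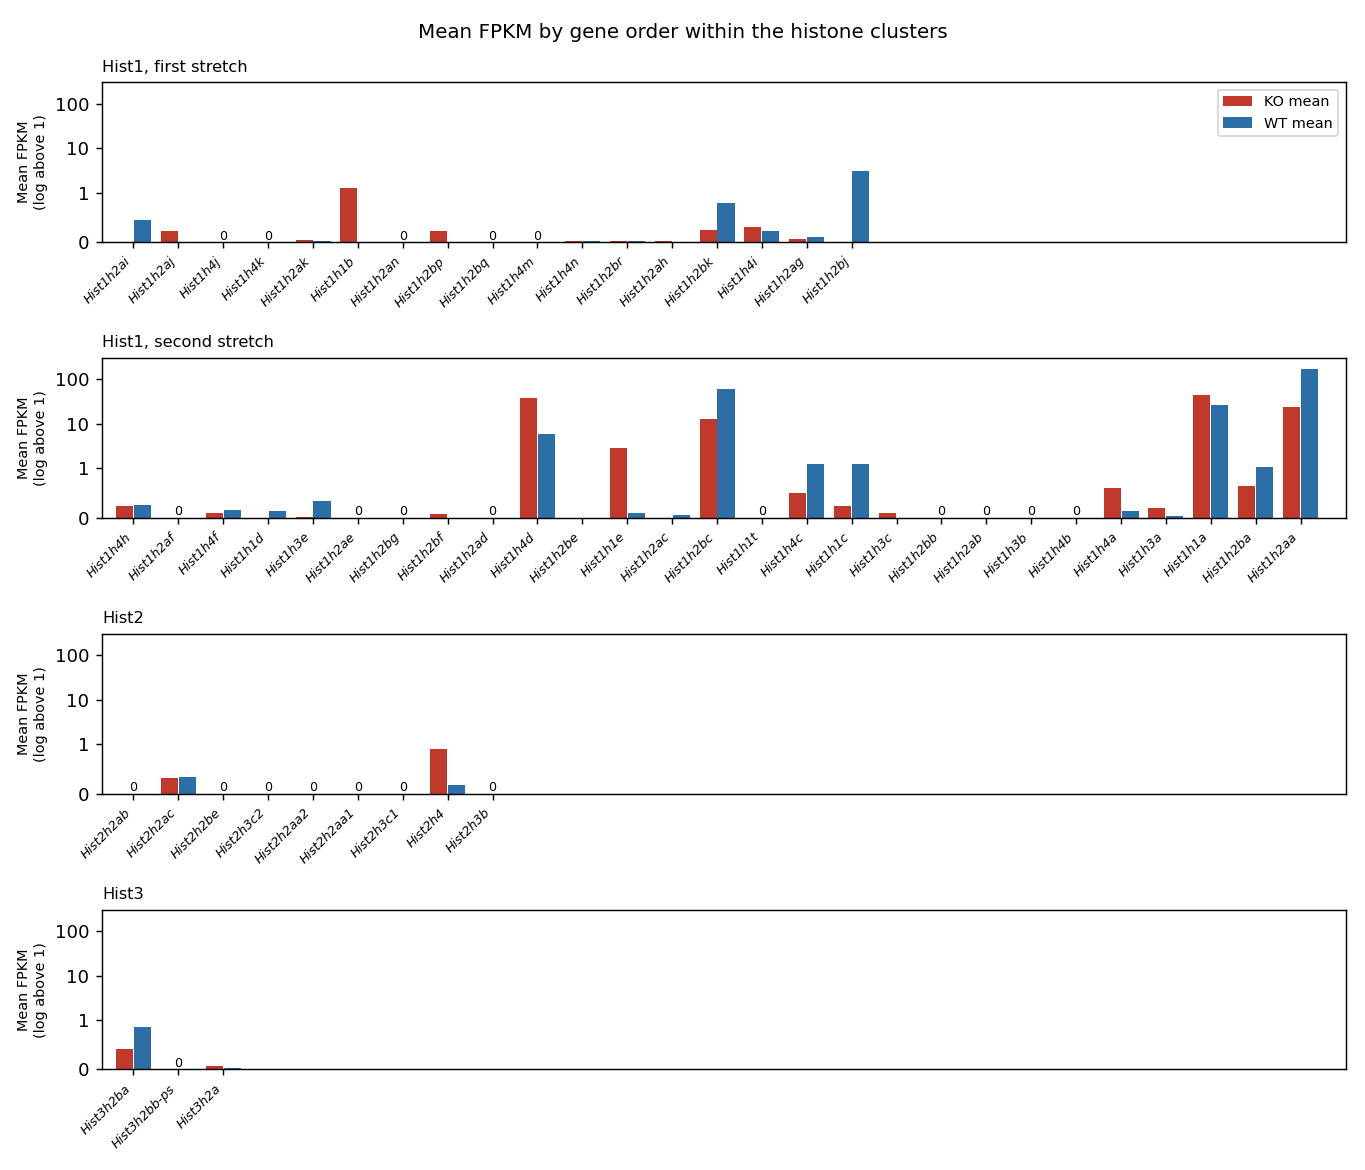
Mean FPKM in KO (left bar of each pair) and WT oocytes (right bar), with genes in their order along the chromosome in each stretch of the Hist1, Hist2 and Hist3 clusters, linear below 1 and logarithmic above; 0 marks genes with no read in any oocyte. High genes such as Hist1h4d, Hist1h2bc, Hist1h1a and Hist1h2aa stand apart among neighbours at or near 0, and the solitary Hist1h2al is not drawn.

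Head-to-head neighbours were mostly low, as were the histone genes in all, of which 7 of 57 reached a mean FPKM of 1. Of 9 H2A and H2B pairs that start 172 to 305 bases apart on opposite strands, both genes were under a mean FPKM of 1 in 6, and 1 gene but not the other reached it in 3. Hist1h2bc stood at 12.9 FPKM in KO and 60.3 in WT oocytes, beside its partner Hist1h2ac at 0 in KO and 0.058 in WT oocytes. Hist1h2bj stood at 0 in KO and 2.99 in WT oocytes, beside Hist1h2ag at 0.058 in KO and 0.095 in WT oocytes. In 1 pair, Hist1h2ae and Hist1h2bg, neither gene had a read.

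Members differed in how much sequence they share with other genes. Of 50-base windows in a member's M21 transcripts, the share found in transcripts of other genes at other loci had a median of 59.2% over the 22 genes with no read and 39.5% over the 35 with reads. The range was 0% to 100% over the genes with no read and 0% to 93.1% over those with reads. Hist2h2be and Hist1h1t had no shared window and no read, whereas Hist1h2ah at 90.7% and Hist1h2aj at 93.1% each had reads, 1 and 5 over the 8 oocytes. The part of shared sequence in the read counts was not tested. The length behind the FPKM equalled the M21 length for 15 of the 35 genes with reads. For the others the windows need not match the bases counted. Neither the read length nor the handling of reads with several matches is stated in the labels.

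Slbp itself was abundant and slightly higher in KO oocytes. Slbp (chr5:33634952-33652574 in GRCm38, minus strand) had 709, 799, 718 and 703 FPKM in KO1, KO3, KO5 and KO6, against 726, 497, 489 and 598 FPKM in WT1, WT2, WT4 and WT5. All KO oocytes exceeded WT2, WT4 and WT5, and WT1 lay among the KO oocytes. Means were 732 ± 45.1 in KO and 577 ± 111 in WT oocytes (SD, n = 4 each), a 1.27-fold difference and 0.36 on the log2(FPKM + 1) scale. It ranked between 58 and 68 among all genes in KO and between 66 and 104 in WT oocytes. Slbp FPKM was 3.27 to 7.799 times the summed FPKM of the 57 histone genes in KO and 1.36 to 2.53 times in WT oocytes, without overlap. These are ratios of FPKM and not of mRNA copies. The lower histone sum in KO was that of Hist1h2aa and Hist1h2bc. Over the other 55 genes the mean sum was 113 in KO and 68.3 in WT oocytes. A predicted gene, Gm10459, that is not among the table's IDs overlaps 474 bases of its exons.

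Genes that make, use and destroy histone mRNA were listed in 4 groups of 38 genes in all, of which 37 were in the table and 26 were compared. In KO oocytes 4 of the 26 were at least 2-fold higher, beside 18.3% of all compared genes, and 0 were at least 2-fold lower, beside 6.84%. The genotypes did not overlap for 6 of the 26, beside 20.7%. Their median difference was 0.32, beside 0.098 over all compared genes. The 2-fold higher count was 7 without WT4.

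Of 12 compared genes for cleavage of the histone mRNA 3′ end, 2 were at least 2-fold higher in KO, beside 18.3% of all compared genes. Sympk, encoding symplekin, the scaffold of the cleavage complex, had 13.2, 21.2, 29.5 and 27.1 FPKM in KO1, KO3, KO5 and KO6, against 3.102, 5.87, 2.61 and 2.30 FPKM in WT1, WT2, WT4 and WT5, 6.55-fold higher in KO and without overlap. Zfp473, a zinc finger protein of the U7 particle, averaged 4.56 ± 2.79 FPKM in KO and 1.09 ± 0.70 in WT oocytes (SD, n = 4 each), 4.201-fold higher in KO, with overlap through KO1. Lsm10, a ring protein found in U7 particles, averaged 21.7 ± 4.58 FPKM in KO and 12.3 ± 7.88 in WT oocytes, with overlap. In the other direction and under 2-fold, Snrpd3, of the Sm ring, was 411 to 531 FPKM in KO and 546 to 723 in WT oocytes. Ncbp2, of the cap-binding complex, was 8.87 to 19.8 FPKM in KO and 21.8 to 32.7 in WT oocytes. Snrpd3 and Ncbp2 are named because their genotypes did not overlap, a choice made after their values were seen. The median difference of the 12 was -0.041.

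Of the genes for histone gene transcription, 2 of 4 were compared. Npat, the coactivator of clustered histone genes, averaged 6.51 ± 1.49 FPKM in KO and 3.004 ± 1.41 in WT oocytes (SD, n = 4 each), 2.17-fold higher in KO, or 1.93-fold without WT5, with overlap. Coil, encoding the Cajal body protein coilin, averaged 3.38 ± 1.11 FPKM in KO and 2.47 ± 0.97 in WT oocytes, with overlap.

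Of 6 compared genes for translation and turnover of histone mRNA, 1 was at least 2-fold higher in KO, beside 18.3% of all compared genes. Eri1, the exonuclease that trims the stem-loop end, had 5.66, 4.37, 4.80 and 6.29 FPKM in KO1, KO3, KO5 and KO6, against 2.39, 3.72, 1.23 and 0.69 FPKM in WT1, WT2, WT4 and WT5, 2.63-fold higher in KO and without overlap. Lsm1, of the decay ring that binds the oligouridylated end, was 73.1 to 82.6 FPKM in KO and 31.4 to 52.6 in WT oocytes, 1.81-fold higher in KO. Dcp2, the decapping enzyme, averaged 9.51 ± 1.55 FPKM in KO and 6.03 ± 3.28 in WT oocytes (SD, n = 4 each), with overlap through WT4.

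None of the 6 compared genes that control SLBP protein differed by 2-fold. Ccna2, encoding the cyclin A whose kinase marks SLBP for destruction, was 35.1 to 44.4 FPKM in KO and 22.6 to 30.01 in WT oocytes, 1.49-fold higher in KO and without overlap. Fem1b, a substrate adaptor of a ubiquitin ligase, averaged 3.80 ± 1.73 FPKM in KO and 2.36 ± 1.29 in WT oocytes (SD, n = 4 each). Ccnf, encoding cyclin F, a ligase subunit that targets SLBP, averaged 1.01 ± 0.41 FPKM in KO and 0.79 ± 0.67 in WT oocytes, and both overlapped.

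**Figure D4:**
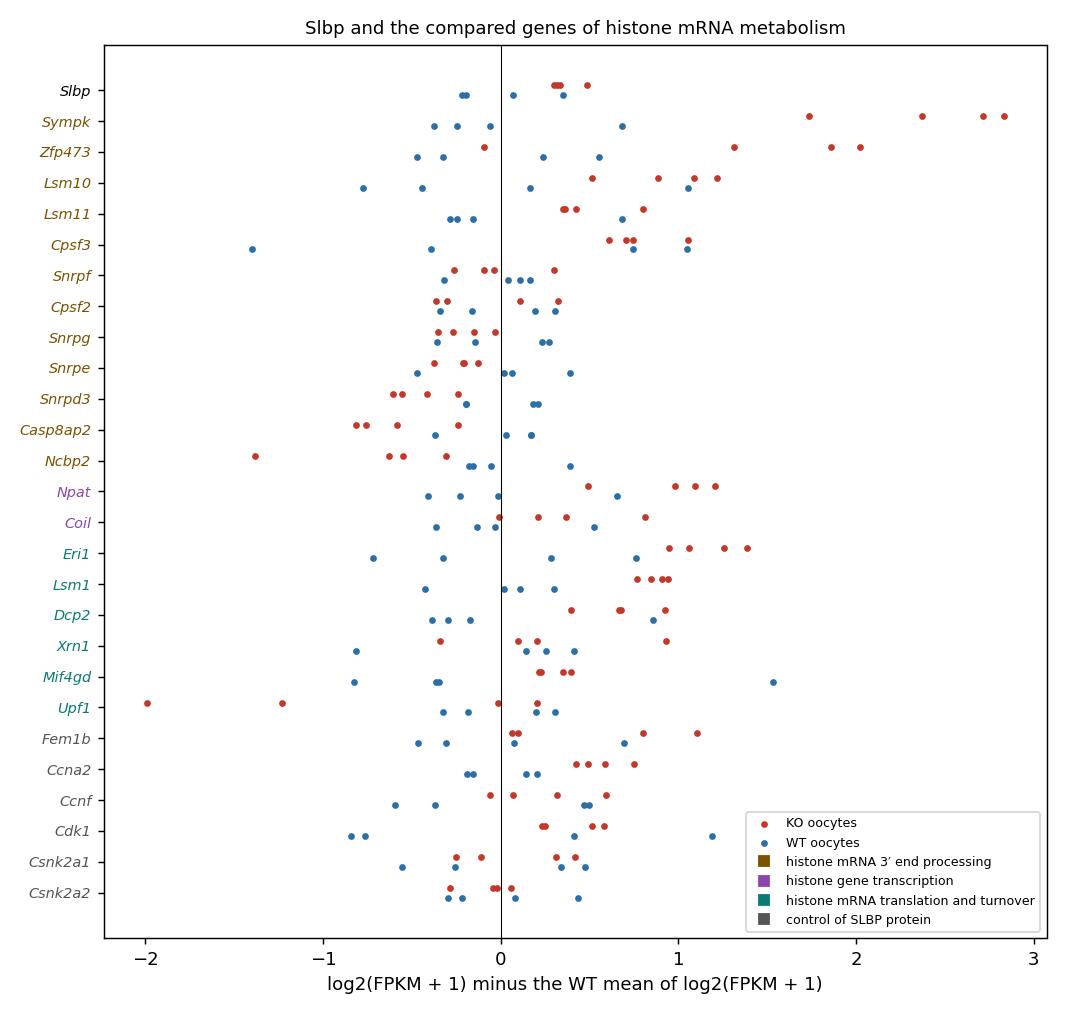
Each oocyte's log2(FPKM + 1) minus the WT mean for Slbp and the 26 compared genes of histone mRNA metabolism, KO oocytes above WT oocytes on each line, with gene names coloured by list. Sympk, Eri1, Lsm1 and Ccna2 have all KO points right of all WT points, Snrpd3 and Ncbp2 all KO points left of them, and the other genes overlap.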

How the data were processed

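RNA of 8 single oocytes was converted to cDNA with the SMARTer Ultra Low Input kit and sequenced on an Illumina HiSeq instrument, per the labels' protocols. The authors deposited 1 table of FPKM values; per the submitters' processing notes the build was mm9 and the tools included Bowtie 0.12.8, TopHat2 2.0.2, Bowtie2, HTSeq and edgeR 3.1.10, with no role given. The sources used here give neither the annotation release nor the use of strand. ERCC spike-in values were not used here, so levels are relative within each library, and fewer transcripts per cell cannot be told apart from more of everything else. PCR duplicates were not marked by molecular identifiers, so intervals cover counting error only.

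Whole reads were recovered from the FPKM steps, with totals from 5353 genes whose exon length equals M21's. Of 105060 values above 0, 100% were whole within 0.0001 reads. Lengths were chosen to make reads whole, so this share is no check of the recovered reads. For genes of another length the smallest whole reads are given, so low read counts can be too small by a whole factor. The recovery and the 2-fold threshold were tested on simulated data. All changed genes in the simulation had many reads, and all genes had the same spread. The threshold was thus not tested for genes with few reads or a wider spread. Members and lists were chosen with earlier results of these data known. Named were Slbp, members with a mean FPKM of at least 1, up to 2 others per type with the most reads, the 3 compared genes per pathway list with the largest ratio, and up to 4 markers per list with the highest mean. Zcchc6 matched no M21 symbol. Gene positions and transcripts are of GENCODE M21 (GRCm38) and promoters of RefSeq GRCm38.p6, neither being the build of the reads. Alternatives were another pseudocount, filter, scaling or threshold, leaving out each oocyte, pairing by number, and leaving out overlapping members. Python 3.11.15, pandas 2.3.3, numpy 2.4.6, scipy 1.17.1 and matplotlib 3.10.9 were used.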

Additional observations from a re-analysis of the deposited data

Results flagged for a closer look

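Of 86 groups of 4 values examined (the named genes and the summed types, in each genotype), 11 had 1 oocyte whose gap to the rest was large against the range. The usual rate of 1 in 20 such groups assumes normally spread values. It does not hold for genes with reads in 1 oocyte only, which are flagged by their sparse reads. Groups whose 4 values were all 0 are counted in the 86 but could not be flagged. An excess of flags was not tested. Among KO oocytes, Slbp was 799 FPKM in KO3 and 703 to 718 in the others, Hist3h2ba was 1.49 FPKM in KO3 and 0 to 0.11 in the others, Hist1h3a was 0.81 FPKM in KO5 and 0 in the others, and Gdf9 was 1426 FPKM in KO3 and 1010 to 1060 in the others. Among WT oocytes, 5 genes had reads in 1 oocyte only: Hist1h1e with 0.37, Hist3h2a with 0.12, Hist1h3a with 0.13 and Tnfaip6 with 0.66 FPKM in WT1, and Hist2h4 with 0.73 FPKM in WT4. In WT oocytes Dcp2 was 10.9 FPKM in WT4 and 4.02 to 4.83 in the others, and Gdf9 was 2882 FPKM in WT1 and 1303 to 1512 in the others.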

How the results depend on the processing

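The 2-fold lower count of histone genes was 2 to 4 under all alternatives but the absence of a filter, where it was 12 of 35 and the 2-fold higher count 14 of 35. Shares over all genes were computed under the main filter and threshold alone. Counts under other settings, of histone or pathway genes, thus have no background beside them. The 2-fold higher count was 2 at a threshold of 1.5-fold, and 1 to 2 with each oocyte left out. The median log2 difference was -0.25 with a mean FPKM of at least 5, -0.026 without a filter, -0.43 with a pseudocount of 5, -0.60 after rescaling to reads in listed genes and -0.58 over members whose exons overlap no other gene. It ranged from -1.32 to 0.17 with each oocyte left out, the reversal being without WT1. The share difference was -0.00075 percentage points over members that overlap no other gene, which leaves out Hist1h2aa, 0.0034 over members other than Hist1h2aa and Hist1h2bc, a choice made after seeing the data, and -0.0084 to -0.0055 with each oocyte left out. The median over all compared genes, 0.098 as deposited, was 0.20 after rescaling to reads in listed genes and 0.0062 with median-of-ratios scaling. The Slbp difference was 0.48 and 0.24 under these scalings and 0.29 to 0.48 with each oocyte left out. The pathway count at least 2-fold higher was 9 at 1.5-fold, 1 with a mean FPKM of at least 5, 8 without a filter and 4 to 7 with each oocyte left out; the 2-fold lower count was 2 at 1.5-fold, 1 without a filter and 0 with each oocyte left out. Beyond the fewer or more genes that a filter or threshold leaves, the cause was not tested.

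Numbers 1 and 5 occur in both genotypes, but they mark single oocytes and no shared female is named. The correlation of deviations from the genotype means over 7833 genes was 0.030 for KO1 with WT1 and 0.068 for KO5 with WT5. With the replicate block the Slbp difference was 0.12 and the 2-fold higher histone count 2.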
